A study of Bos taurus with 8 samples.

Results

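The 10 genes described here encode transcription factors that are known for their part in trophectoderm or in the placental trophoblast that comes from it: CDX2, GATA3, GATA2, TFAP2A, TFAP2C, ELF5, ASCL2, HAND1, DLX4 and MSX2. They were chosen by name, and all 10 were among the 18825 genes of the deposited table, which covers 286 single cells of wildtype, uninjected bovine (Bos taurus) embryos. The cells came from 6 libraries, each a pool of barcoded cells, called replicates 1 to 6. By the authors' cell table there were 58 Morula cells from day 6 after fertilization and 39 cells of the class EB from day 7. Day 8 gave 37 cells of MB TE and 51 of MB ICM. Day 9 gave 31 cells of LB TE, 25 of LB PE and 45 of LB EPI. By common usage TE stands for trophectoderm, ICM for inner cell mass, PE for primitive endoderm and EPI for epiblast, while EB, MB and LB keep the spelling of the cell table. The labels name no breed, sex or embryo for a cell, and they do not say that the libraries came from separate embryos, so p-values reflect how far these libraries vary, part or all of which may be technical.

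Trophectoderm is the outer epithelium of the blastocyst and the first lineage to leave the common pool of the early embryo. In the mouse, polarised outer cells exclude Hippo signalling, and the TEAD factors with their partner YAP then switch on Cdx2 and Gata3, which in turn maintain the trophoblast state. AP-2 factors such as TFAP2C act beside them. In the mouse Elf5 and Ascl2 belong to the trophoblast stem cell and its placental descendants, and Hand1 to trophoblast giant cells. In cattle the trophectoderm does not implant at once but grows into a long filament, which makes the later trophoblast genes of interest in the unattached blastocyst.

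Levels are CPM, the reads of a gene scaled to a common total per cell, as the mean of at least 3 cells of 1 class in 1 library, which gave 16 averages. Recovered depth ran from 2633 to 747345 reads per cell, with a median of 150770.5. Cells of LB PE were shallow: their median of 39210 reads compares with 196521 for LB TE and 196981 for LB EPI. The EB level rests on replicate 4 alone. Among the averages used, days 6 and 7 come from replicates 4 and 6 and days 8 and 9 from the other libraries, so a step between them cannot be told apart from a change of library. The same nearly holds between the trophectoderm of the 2 later days: LB TE averages come from replicates 3 and 5 and MB TE averages from replicates 1, 2 and 3, so that replicate 3 alone holds both, with 21 and 3 cells. The trophectoderm names held against markers outside the 10 genes. The summed level of KRT8, KRT18, KRT19, DAB2, PLAC8 and PTGS2 was 37990 to 48677 CPM in LB TE and 31485 to 60490 in MB TE, against 1628 to 8009 CPM in the libraries of the other 5 classes. Log2 changes are on log2(CPM + 10), which understates changes of low genes, and SE is their standard error. How the authors assigned the classes is not given here, and if any of these genes took part in it, its difference between classes is not independent evidence.

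**Figure D1:**
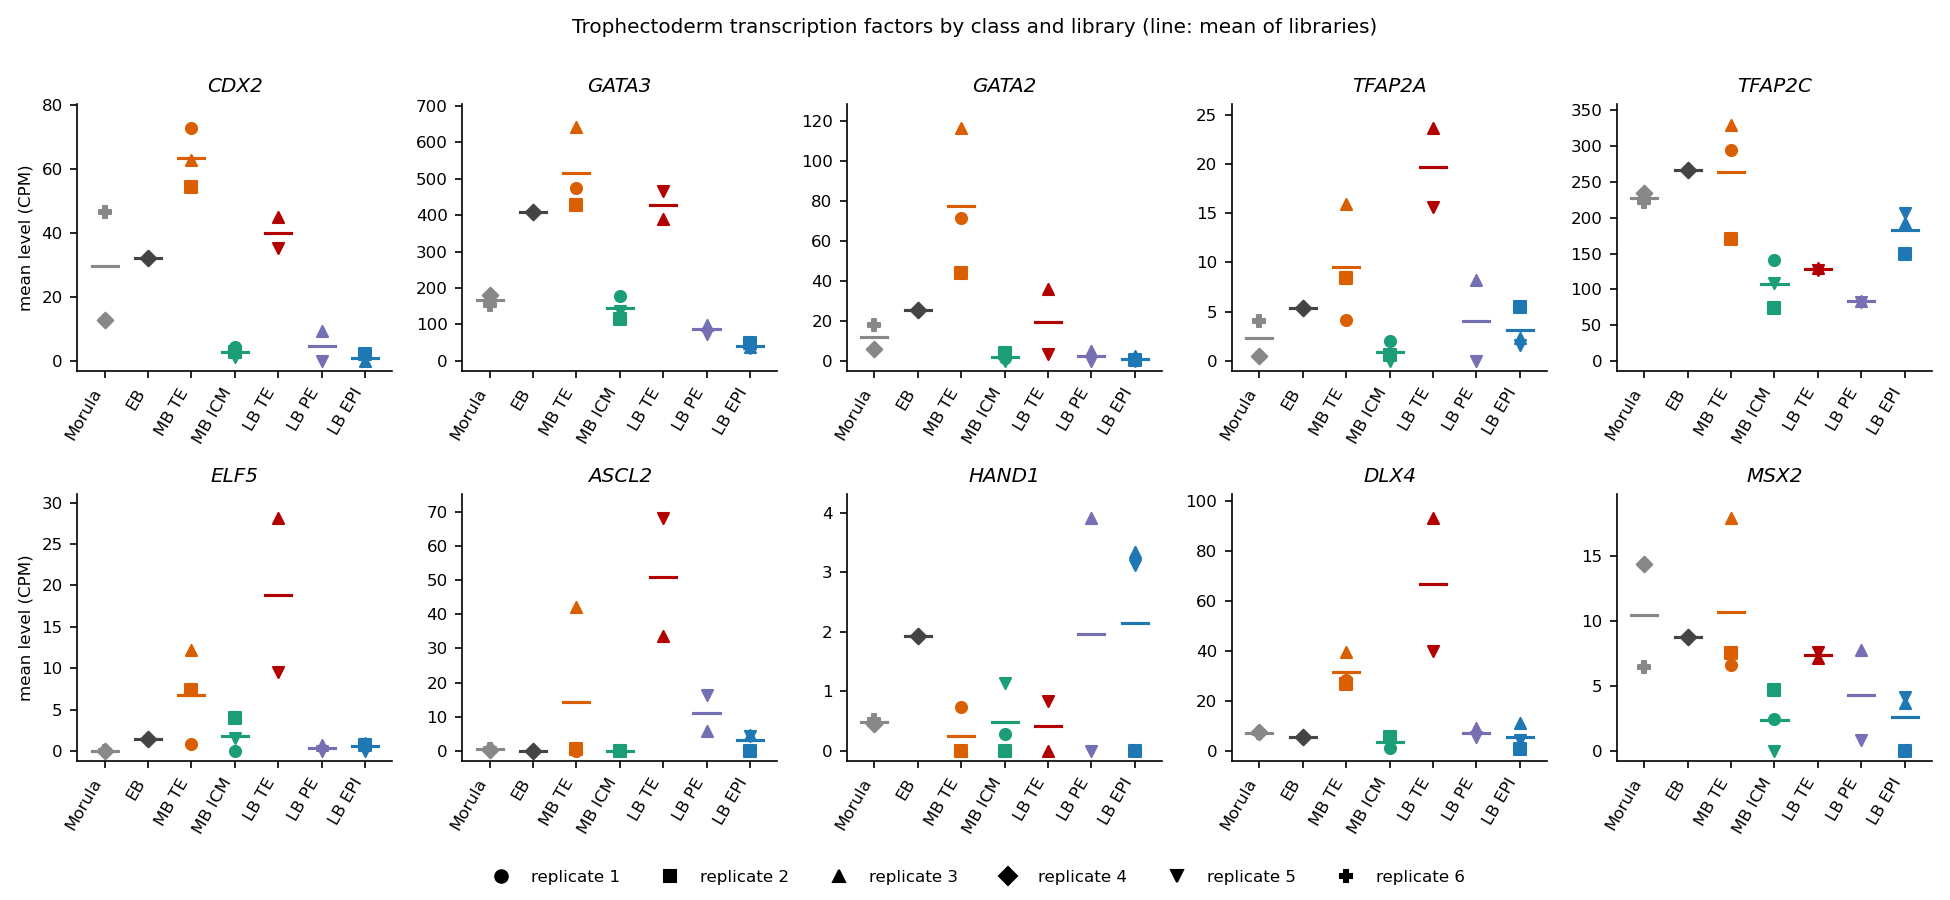
Mean level in CPM of each gene (vertical axis, linear, separate scale per gene) in each class (horizontal axis, by age, with trophectoderm first within a day). Each point is 1 library's average over at least 3 cells, its shape gives the replicate and the line is the mean of libraries. CDX2 and GATA2 are highest in MB TE, while TFAP2A, ELF5, ASCL2 and DLX4 are highest in LB TE.

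CDX2, the caudal homeobox factor that marks trophectoderm, was low in the inner cells of both days and high in the outer ones. On day 8 it stood at 72.9, 54.4 and 62.9 CPM in MB TE of replicates 1, 2 and 3, against 4.31, 2.90 and 1.15 CPM in MB ICM of replicates 1, 2 and 5. Day 9 gave 44.9 and 35.3 CPM in LB TE of replicates 3 and 5, against 2.21, 0 and 0.887 CPM in LB EPI of replicates 2, 3 and 5. The lowest trophectoderm library was thus above every inner-cell library on both days. In limma's test, which was fitted over all genes with Benjamini-Hochberg adjustment, CDX2 rose by 2.47 in MB TE (SE 0.33, adjusted p = 4.13e-05) and by 2.19 in LB TE (SE 0.37, adjusted p = 0.000304). Between the trophectoderm of day 9 and that of day 8 the log2 change was -0.49 (SE 0.38, adjusted p = 1).

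GATA3, a zinc finger factor that acts in parallel with CDX2 downstream of TEAD4 in the mouse, was never confined to the outer cells. It was at 476, 427 and 642 CPM in MB TE of replicates 1, 2 and 3, against 179, 116 and 138 CPM in MB ICM of replicates 1, 2 and 5. In LB TE of replicates 3 and 5 it was at 389 and 467 CPM, against 49.5, 39.5 and 35.6 CPM in LB EPI of replicates 2, 3 and 5. The groups did not overlap on either day, and the inner level was lower on day 9. GATA3 rose by 1.74 in MB TE (SE 0.25, adjusted p = 9.53e-05, limma) and by 3.08 in LB TE (SE 0.28, adjusted p = 3.52e-07). Within the inner lineage it fell by 1.57 in LB EPI relative to MB ICM (SE 0.25, adjusted p = 0.000745), as the 1 gene of the 10 to fall there, with 0 rising, where 1.81% of all genes tested were lower, 3.29% higher and 5.1% either. Its change between LB TE and MB TE was -0.24 (SE 0.29, adjusted p = 1), a value that turned positive without replicate 3 (0.13).

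The order of GATA3 over the 7 classes ran from MB TE, at 515 ± 113 CPM (SD, n = 3), through LB TE at 428 ± 55.4 (n = 2), EB at 410.1 (1 library), Morula at 167 ± 20.5 (n = 2), MB ICM at 144 ± 32.02 (n = 3) and LB PE at 86.4 ± 17.1 (n = 2) to LB EPI at 41.5 ± 7.17 (n = 3). The neighbours MB TE and LB TE overlapped, and so did Morula and MB ICM. EB lay inside the range of LB TE. From Morula to EB its log2 change was 1.23 (SE 0.38), which missed the threshold (adjusted p = 0.528, limma). Replicate 4, the one library with averages of both stages, had 410.1 CPM in EB and 181 CPM in Morula. MB ICM stood below EB with a log2 change of -1.43 (SE 0.39), which also missed it (adjusted p = 0.219, but 0.0357 with limma-voom on summed reads).

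GATA2, the paralog of GATA3 with a nearly identical zinc finger pair, had its highest levels on day 8. It was at 71.2, 43.9 and 116 CPM in MB TE of replicates 1, 2 and 3, against 1.57, 4.17 and 0 CPM in MB ICM of replicates 1, 2 and 5. The day 9 levels were 35.7 and 3.40 CPM in LB TE of replicates 3 and 5, against 0.424, 2.30 and 0.159 CPM in LB EPI of replicates 2, 3 and 5. Replicate 5 therefore had hardly any GATA2 in its day 9 trophectoderm, although it was higher in GATA3 than replicate 3. GATA2 rose by 2.66 in MB TE (SE 0.37, adjusted p = 6.04e-05, limma). On day 9 its log2 change of 1.15 (SE 0.41) missed the threshold (adjusted p = 0.0646), and without replicate 5 it was 1.88 and passed (adjusted p = 0.0306). It also passed with a pseudocount of 1 (2.86, adjusted p = 0.0307), with at least 5 cells per average (1.17, 0.0488), with log2 values averaged over cells (0.95, 0.0398) and with limma-voom (4.13, 0.00657). Between LB TE and MB TE the log2 change was -1.70 (SE 0.42, adjusted p = 0.149), which passed when log2 values were averaged over cells (adjusted p = 0.0142) and under no other alternative.

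TFAP2A and TFAP2C, which encode 2 members of the AP-2 family of DNA-binding proteins, did not follow each other. TFAP2A was low before day 9: 4.17, 8.43 and 15.9 CPM in MB TE of replicates 1, 2 and 3, against 2.002, 0.646 and 0 CPM in MB ICM of replicates 1, 2 and 5. In LB TE of replicates 3 and 5 it reached 23.7 and 15.7 CPM, against 5.48, 2.31 and 1.64 CPM in LB EPI of replicates 2, 3 and 5. Trophectoderm was the higher group on both days, by a few CPM on day 8. The 15.9 CPM of replicate 3 rests on 3 cells, of which 1 gave 73.7% of it from 2 reads. TFAP2A rose by 1.18 in LB TE (SE 0.31, adjusted p = 0.0123, limma), which no longer passed when replicate 3 (adjusted p = 0.119) or 5 (0.0834) was left out, and its change of 0.72 in MB TE did not pass (SE 0.28, adjusted p = 0.113).

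TFAP2C was detected in every library average, and the order of outer and inner cells was not the same on the 2 days. On day 8 it was at 294, 170.3 and 329 CPM in MB TE of replicates 1, 2 and 3, against 140.4, 73.3 and 109 CPM in MB ICM of replicates 1, 2 and 5. On day 9 it was at 129.7 and 128 CPM in LB TE of replicates 3 and 5, against 149.7, 192 and 207 CPM in LB EPI of replicates 2, 3 and 5. The trophectoderm libraries were above all inner-cell libraries on day 8 and below all epiblast libraries on day 9. TFAP2C rose by 1.204 in MB TE (SE 0.26, adjusted p = 0.00444, limma). The day 9 log2 change of -0.54 did not pass (SE 0.29, adjusted p = 0.254). The difference between the day 9 and day 8 changes was -1.74 (SE 0.39), which missed the threshold (adjusted p = 0.0529, limma). It passed with a pseudocount of 30 (-1.56, adjusted p = 0.0468) and with log2 values averaged over cells (-1.91, 0.0466). In humans TFAP2C is also known as a factor of naive epiblast cells. Its log2 change was -0.99 in LB TE relative to MB TE (SE 0.30, adjusted p = 0.341). In LB EPI relative to MB ICM it was 0.75 (SE 0.26, adjusted p = 0.116), and neither passed.

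**Figure D2:**
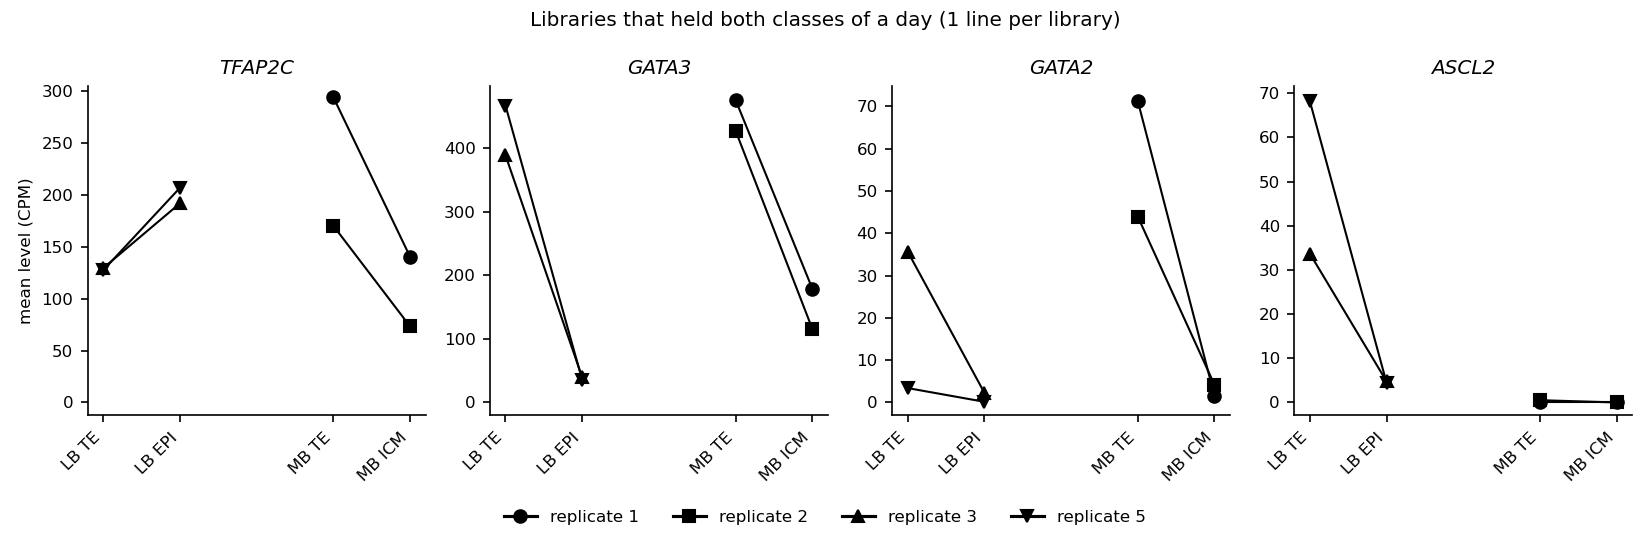
Mean level in CPM (vertical axis) of 4 genes in the libraries that held both trophectoderm and inner cells of a day, with day 9 on the left and day 8 on the right of each panel. Each line is 1 library. TFAP2C is higher in MB TE than in MB ICM in replicates 1 and 2, and lower in LB TE than in LB EPI in replicates 3 and 5.

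ELF5, an ETS-domain factor of mouse trophoblast stem cells, was low until day 9. Morula cells held 0 reads of it among 10088789, which allows a level of up to 0.297 CPM (3 reads over the class, counting error only). It was at 0.819, 7.33 and 12.2 CPM in MB TE of replicates 1, 2 and 3, against 0, 3.97 and 1.54 CPM in MB ICM of replicates 1, 2 and 5. LB TE of replicates 3 and 5 had 28.2 and 9.57 CPM, against 0.747, 0.990 and 0 CPM in LB EPI of replicates 2, 3 and 5. The groups overlapped on day 8 and were apart on day 9. In MB TE of replicate 3 a single cell of 3 held all the ELF5, from 6 reads. ELF5 rose by 1.38 in LB TE (SE 0.30, adjusted p = 0.00298, limma), and its change of 0.39 in MB TE did not pass (SE 0.27, adjusted p = 0.427). It reached 10 CPM, the filter for testing, only in MB TE and LB TE of replicate 3, so it was not tested without that library.

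ASCL2, a basic helix-loop-helix factor that mouse placenta expresses from the maternal allele, had its highest averages in LB TE, but its values followed library as well as day. It was at 0, 0.516 and 42.1 CPM in MB TE of replicates 1, 2 and 3, and at 0 CPM in MB ICM of replicates 1, 2 and 5. The value of replicate 3 rests on 3 cells, of which 2 had a read and 1 gave 97.4% of it. LB TE of replicates 3 and 5 had 33.7 and 68.2 CPM, against 0, 4.79 and 4.48 CPM in LB EPI of replicates 2, 3 and 5. MB TE was thus at or near 0 in replicates 1 and 2 and inside the LB TE range in replicate 3. The 1 LB TE cell of replicate 2, with 747345 reads, had 0 reads of ASCL2. ASCL2 rose by 2.08 in LB TE (SE 0.49, adjusted p = 0.00671, limma), a call lost without replicate 5 (log2 change 1.56, adjusted p = 0.187). Its change of 0.82 in MB TE did not pass (SE 0.44, adjusted p = 0.288). Between LB TE and MB TE the log2 change was 1.53 (SE 0.51, adjusted p = 0.469), while within replicate 3 the log2 difference was -0.25. With averages of at least 5 cells, which drops MB TE of replicate 3, it was 2.46 and passed (adjusted p = 0.00816), and without replicate 3 it was 2.85 (adjusted p = 0.0159). Both settings leave no library with both days.

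HAND1, the other basic helix-loop-helix factor, was not seen as a trophectoderm gene at these ages. It was at 0.736, 0 and 0 CPM in MB TE of replicates 1, 2 and 3, and at 0 and 0.838 CPM in LB TE of replicates 3 and 5. LB EPI had 0, 3.34 and 3.13 CPM in replicates 2, 3 and 5. No average of HAND1 reached 10 CPM, so it was the 1 gene of the 10 that was not tested. Its highest average was 3.91 CPM, in LB PE of replicate 3.

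DLX4, a distal-less homeobox factor known from human placenta, was high in trophectoderm on both days, with its highest average on day 9. It was at 28.3, 26.6 and 39.4 CPM in MB TE of replicates 1, 2 and 3, against 1.19, 5.44 and 4.38 CPM in MB ICM of replicates 1, 2 and 5. LB TE of replicates 3 and 5 had 93.1 and 39.9 CPM, against 0.657, 11.2 and 4.39 CPM in LB EPI of replicates 2, 3 and 5. Both differences separated the libraries completely. DLX4 rose by 1.51 in MB TE (SE 0.32, adjusted p = 0.00294, limma) and by 2.23 in LB TE (SE 0.35, adjusted p = 0.000139). Between LB TE and MB TE the log2 change of DLX4 was 0.76 and did not pass (SE 0.36, adjusted p = 0.872, limma). LB TE of replicate 5, at 39.9 CPM, was close to MB TE of replicate 3, at 39.4 CPM. That MB TE level rests on 3 cells, of which 1 gave 84.5% of it. Against EB, where DLX4 was at 5.71 CPM, its change in MB TE was 1.37 (SE 0.48, adjusted p = 0.239).

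MSX2, a muscle segment homeobox factor downstream of BMP signals in many tissues, differed little. It was at 6.58, 7.54 and 17.9 CPM in MB TE of replicates 1, 2 and 3, against 2.48, 4.67 and 0 CPM in MB ICM of replicates 1, 2 and 5. LB TE of replicates 3 and 5 had 7.14 and 7.61 CPM, against 0, 3.72 and 4.17 CPM in LB EPI of replicates 2, 3 and 5. Trophectoderm was a few CPM higher on both days, and Morula, at 14.4 and 6.48 CPM in replicates 4 and 6, overlapped with MB TE. The 17.9 CPM of MB TE in replicate 3 rests on 3 cells, of which 1 gave 65.9% of it. Neither change passed limma's test: 0.66 in MB TE (SE 0.29, adjusted p = 0.167) and 0.45 in LB TE (SE 0.32, adjusted p = 0.41). With log2 values averaged over cells the day 8 change of MSX2 passed (0.65, adjusted p = 0.0274), as did that of TFAP2A (0.58, 0.0445).

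In all, 6 of the 10 genes rose in LB TE relative to LB EPI (CDX2, GATA3, TFAP2A, ELF5, ASCL2, DLX4) and 0 fell, where 8.26% of the 12538 genes tested were higher, 6.9% lower and 15.2% either. In MB TE relative to MB ICM 5 rose (CDX2, GATA3, GATA2, TFAP2C, DLX4) and 0 fell, where 5.97% of all genes tested were higher, 4.11% lower and 10.1% either. The genes were chosen as trophectoderm factors, so these counts describe them and add no support. TFAP2A, ELF5, ASCL2 and MSX2 reached the filter of 10 CPM in only 3, 2, 4 and 2 of the 16 averages, mostly trophectoderm. DLX4 reached it in 6, all of them trophectoderm except LB EPI of replicate 3. Passing the filter through trophectoderm favours a higher level there, so the calls of such genes add no support. The median log2 change of the 9 tested genes was 1.38 on day 9 and 1.204 on day 8, beside -0.04 on both days over all genes tested. Between LB TE and MB TE 0 of the 9 passed limma's test, where 0.191% of all genes did, although 5 had an unadjusted p under 0.05 and limma-voom called 1, ASCL2. For the difference between the day 9 and day 8 changes 0 passed as well, where 0.367% of all genes did, with 4 at an unadjusted p under 0.05 and 0 with limma-voom. Those values ranged from -1.74 for TFAP2C and -1.51 for GATA2 to 1.26 for ASCL2 and 1.33 for GATA3. The shares of all genes at an unadjusted p under 0.05 and with limma-voom are not given here. Counts of the 9 genes by those rules, here and below, therefore have no background to be read against.

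**Figure D3:**
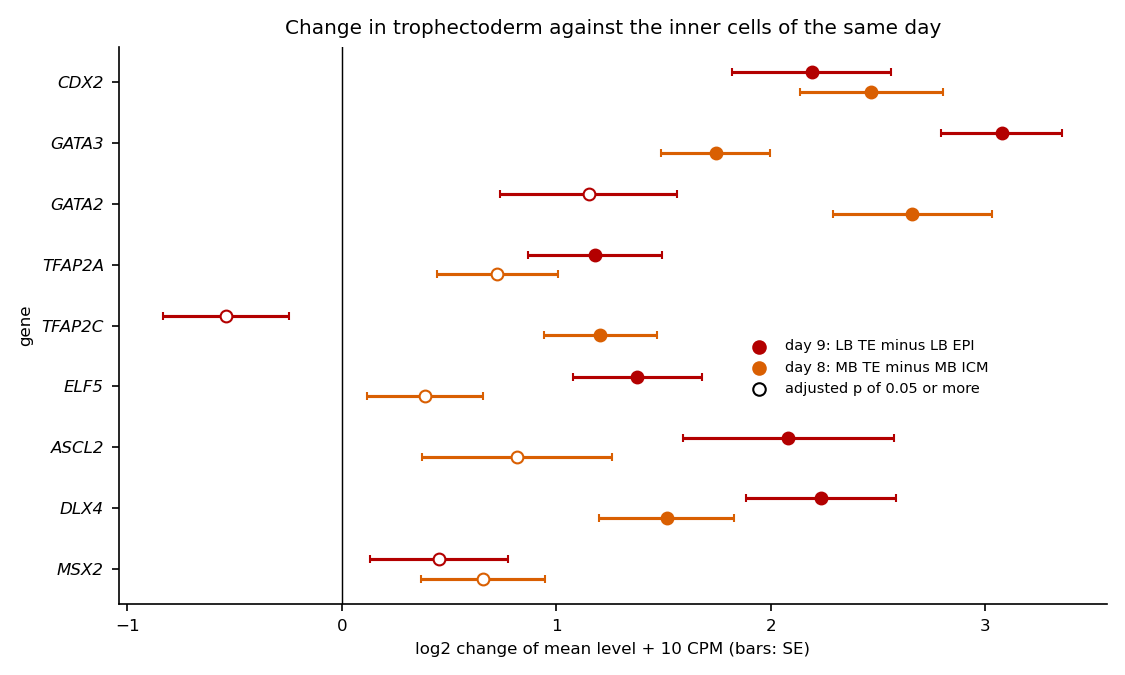
Log2 change of mean level + 10 CPM (horizontal axis, bars are SE) of the 9 tested genes in trophectoderm against inner cells, day 9 (LB TE minus LB EPI) above day 8 (MB TE minus MB ICM). Filled points have an adjusted p under 0.05 in limma. CDX2, GATA3 and DLX4 are filled on both days, GATA2 and TFAP2C on day 8, and TFAP2A, ELF5 and ASCL2 on day 9.

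Summed levels of genes listed as markers of other cells differed in part of these comparisons. The summed level of 8 cumulus and granulosa genes, all of which were in the table, was 157 to 285 CPM in LB TE libraries, against 21.4 to 90.2 CPM in LB EPI libraries. AMH was at 0 in both, and PTX3 at 0 in LB EPI. Morula libraries had 5.96 to 221 CPM. The 8 include the steroid synthesis genes CYP11A1 and CYP19A1. Levels per gene are not given here, so the sum does not show that other cells were present. On day 8 the same sum was 26.9 to 128 CPM in MB TE and 6.22 to 16.6 CPM in MB ICM, with INHA at 0 in MB TE and CYP19A1, AMH and PTX3 at 0 in MB ICM. Fibroblast genes, 7 of 7 in the table, summed to 97.8 to 106.8 CPM in LB TE and 189 to 299 CPM in LB EPI. Their part in the results was not tested.

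Before the lineages part, several of the 10 genes were already present. In Morula of replicates 4 and 6 CDX2 was at 12.6 and 46.6 CPM, GATA3 at 181 and 152 CPM, and TFAP2C at 234 and 222 CPM. The CDX2 level of replicate 6 leans on few cells. Of its 45 cells 2 gave 52.6% of the sum, at 609 and 495 CPM from 5 and 6 reads in shallow cells of 8212 and 12112 reads, and without them the level was 23.1 CPM. EB of replicate 4 had 32.04 CPM of CDX2 and 25.3 CPM of GATA2. No gene of the 10 passed limma's test between EB and Morula, where 0.0798% of all genes did, and GATA3 alone had an unadjusted p under 0.05, with 0 calls by limma-voom.

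Compared with EB, the day 8 inner cells stood lower in the genes that were already on. The log2 changes in MB ICM were -1.83 for CDX2 (SE 0.51, adjusted p = 0.24), -1.57 for GATA2 (SE 0.56, adjusted p = 0.476) and -1.25 for TFAP2C (SE 0.40, adjusted p = 0.365). With GATA3 these were the 4 genes at an unadjusted p under 0.05, and 0 passed limma's adjusted test, where 0.175% of all genes did and limma-voom called GATA3. In MB TE relative to EB 0 passed, where 0.997% of all genes did, DLX4 alone had an unadjusted p under 0.05 and limma-voom called 0. EB is 1 average here, assumed to vary like the other classes, and comes from a library that held no day 8 cells. In these 2 comparisons the median over all genes tested was -0.12 for MB ICM and -0.14 for MB TE, and with limma-voom it was -0.18 and -0.28, so the changes are to be read relative to that shift.

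Primitive endoderm, the second inner lineage of day 9, stood below trophectoderm in several of these genes, and its cells were shallower. The part of depth in this was not tested. LB PE of replicates 3 and 5 had 9.29 and 0 CPM of CDX2, 0.656 and 0 CPM of ELF5, and 9.12 and 5.36 CPM of DLX4. GATA3 was at 98.4 and 74.3 CPM there, between LB TE and LB EPI. Relative to LB TE 4 of the 10 genes fell in LB PE, and 0 rose, where 3.39% of all genes tested were lower, 2.46% higher and 5.85% either: GATA3, DLX4, CDX2 and ELF5. GATA3 fell by 2.19 (SE 0.30, adjusted p = 0.000161, limma) and DLX4 fell by 2.07 (SE 0.38, adjusted p = 0.00166). CDX2 fell by 1.84 (SE 0.40, adjusted p = 0.00695) and ELF5 fell by 1.40 (SE 0.33, adjusted p = 0.0112). ELF5 reached the filter of 10 CPM in trophectoderm averages only, so its fall adds no support. With limma-voom the call of ELF5 was lost (adjusted p = 0.111). Without replicate 5 the calls of CDX2 (adjusted p = 0.185) and ELF5 (0.0662) were lost, which left 2. TFAP2A (log2 change -1.12, adjusted p = 0.0518) and ASCL2 (-1.52, adjusted p = 0.109) missed the threshold. TFAP2A passed with a pseudocount of 30 (adjusted p = 0.0387), with at least 5 cells (0.0388), with log2 values averaged over cells (0.00439) and with median-of-ratios scaling (0.037). ASCL2 passed with at least 5 cells (0.00741), with log2 values averaged over cells (0.0055) and without replicate 3 (0.0342). GATA2 had a log2 change of -1.02 (adjusted p = 0.201), TFAP2C of -0.58 (0.332) and MSX2 of -0.32 (0.7).

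Relative to LB EPI 1 gene fell in LB PE, and 0 rose, where 2.41% of all genes tested were lower, 2.98% higher and 5.39% either. TFAP2C was at 83.3 and 82.8 CPM in LB PE of replicates 3 and 5, against the 149.7, 192 and 207 CPM of LB EPI given above, and fell by 1.11 (SE 0.29, adjusted p = 0.0282, limma). It did not pass when replicate 3 (adjusted p = 0.117) or 5 (0.156) was left out, without the replicate block (0.0991), without the filter on low values (0.0641) and with limma-voom (0.0729). GATA3 was higher in both libraries that held both classes, with a log2 change of 0.89 that missed the threshold (SE 0.28, adjusted p = 0.0716, limma). In LB PE of replicate 5, 2 shallow cells of 9 gave 69.2% of the GATA3 level, from 7 and 5 reads. Without the 2 highest cells of each class, that replicate had 29.4 CPM in LB PE and 21.9 CPM in LB EPI. In replicate 3 these levels were 72.2 and 30.3 CPM.

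Single cells showed how widely each factor was spread within trophectoderm. CDX2 had a read in 22 of 31 LB TE cells (71.0%, exact binomial interval at 95% 52.0 to 85.8) and in 34 of 37 MB TE cells (91.9%, 78.1 to 98.3). In LB EPI, where little is to be expected, 9 of 45 cells had one (20.0%). The depths were alike, with medians of 196521, 198116 and 196981 reads. After each cell was thinned to 20000 reads the expected shares were 34.9% in LB TE, 59.4% in MB TE and 2.34% in LB EPI. GATA2 followed the same order when pooled, with 23 of 31 LB TE cells (74.2%), 35 of 37 MB TE cells (94.6%) and 4 of 45 LB EPI cells (8.89%). After thinning these shares were 33.5%, 61.3% and 1.33%. By library, GATA2 had a read in 19 of 21 LB TE cells of replicate 3 and in 3 of 9 of replicate 5. For CDX2 these counts were 14 of 21 and 7 of 9. The lower pooled share of GATA2 in LB TE thus cannot be told apart from a difference between libraries. The median cell held 14.7 CPM of CDX2 in LB TE and 46.4 CPM in MB TE. The highest LB TE cell of replicate 3, at 449.6 CPM, gave 47.7% of that library's CDX2.

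Pooled over libraries, the shares of ASCL2, ELF5, TFAP2A and DLX4 were higher in LB TE than in MB TE. The library averages of the first 3 overlapped between the days, each time through the 3 MB TE cells of replicate 3. ASCL2 had a read in 22 of 31 LB TE cells (71.0%, 42.1% after thinning) and in 3 of 37 MB TE cells (8.11%, 3.07% after thinning). ELF5 had one in 21 of 31 (67.7%, 26.9% thinned) and 7 of 37 (18.9%, 5.85% thinned). TFAP2A had one in 25 of 31 (80.6%, 30.7% thinned) and 14 of 37 (37.8%, 10.8% thinned), and DLX4 in 30 of 31 (96.8%, 65.8% thinned) and 31 of 37 (83.8%, 36.0% thinned). In LB EPI the shares were 35.6% for ASCL2, 8.89% for ELF5, 26.7% for TFAP2A and 31.1% for DLX4, or 6.77%, 0.796%, 4.68% and 6.31% after thinning. The ASCL2 share in MB TE was therefore no higher than in LB EPI. Most MB TE cells were from replicates 1 and 2, where 0 of 21 and 1 of 12 had an ASCL2 read. In replicate 3, which holds both days, 14 of 21 LB TE cells and 2 of 3 MB TE cells had one, so day and library are not separated in the pooled shares. Cells of 1 library are not replicates, and these intervals cover counting error only. HAND1 had a read in 2 of 31 LB TE cells and 2 of 37 MB TE cells, against 7 of 45 LB EPI cells.

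**Figure D4:**
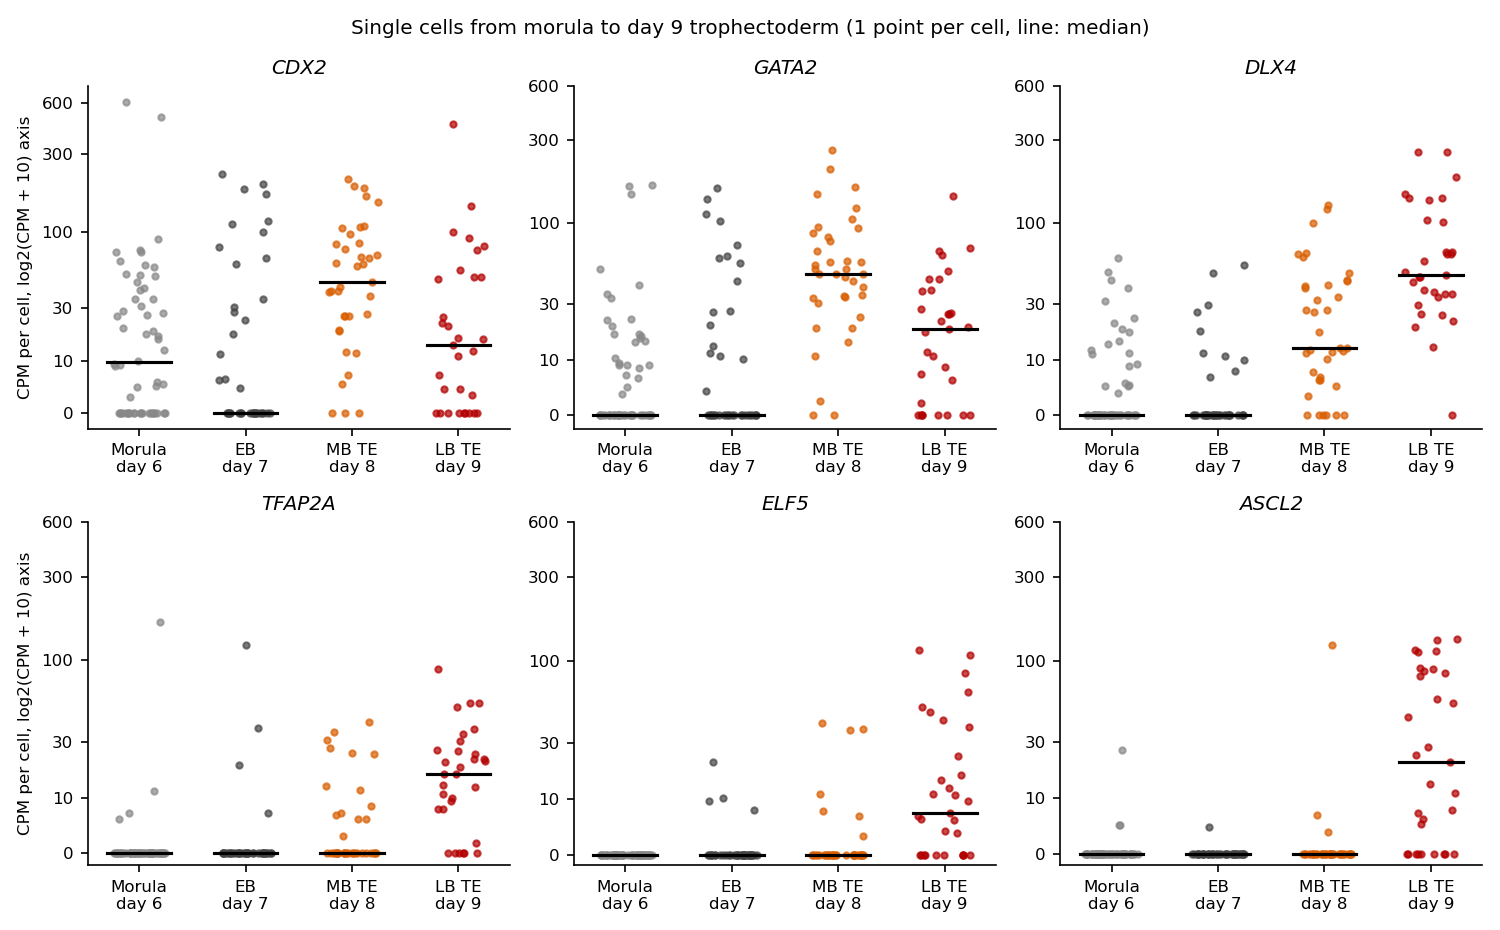
Level of 6 genes in single cells (1 point per cell, CPM on a log2(CPM + 10) axis, line at the median) of Morula, EB, MB TE and LB TE, from day 6 to day 9. The median of GATA2 is 48.5 CPM in MB TE and 19.2 CPM in LB TE. Within LB TE its median is 25.7 CPM in replicate 3 and 0 CPM in replicate 5. The median of ASCL2 is 0 CPM in each of the first 3 classes and 21.3 CPM in LB TE.

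Most trophectoderm cells carried several of the 10 genes at once. The median cell had reads of 7 in LB TE (range 5 to 9) and of 6 in MB TE (3 to 8), against 3 in LB EPI (1 to 7). After thinning the mean was 4.30 in LB TE, 3.81 in MB TE and 1.68 in LB EPI. CDX2 and GATA2 had reads in the same cell in 16 of 31 LB TE cells and in 32 of 37 MB TE cells. TFAP2A and ASCL2 were found together in 19 LB TE cells, and ELF5 and TFAP2A in 18. CDX2 without ASCL2 was seen in 5 LB TE cells and ASCL2 without CDX2 in 5. Taken alone, CDX2 had a read in 22 of the 31 LB TE cells, GATA2 in 23, TFAP2A in 25, ASCL2 in 22 and ELF5 in 21. Whether the pairs met more or less often than these separate counts would give was not tested. A gene with few reads can also be missed in a cell.

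Pluripotency factors were found beside them. NANOG had a read in all 22 LB TE cells with CDX2, and SOX2 in 15 of them, but at low levels: the median LB TE cell held 25.3 CPM of NANOG and 3.06 CPM of SOX2, against 885 and 184 CPM in LB EPI. In Morula 33 of the 37 cells with CDX2 also held SOX2, which had a read in 46 of all 58 cells. GATA3 had a read in 41 of 45 LB EPI cells. Each of these also held NANOG, but so did all 45 LB EPI cells, whatever their GATA3. Among all 31 LB TE cells NANOG had a read in 28 and SOX2 in 19. Whether cells with CDX2 or GATA3 differed from the rest in this was not tested.

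Over the 16 averages some pairs of the 9 tested genes had like patterns and others did not. Pearson's r of log2(CPM + 10) was 0.89 for CDX2 with GATA2 and 0.87 for CDX2 with GATA3. It was 0.88 for ELF5 with DLX4 and 0.85 for TFAP2A with ELF5, but 0.30 for CDX2 with ASCL2, and -0.02 for TFAP2C with ELF5. These values describe averages that share 6 libraries and differ in depth. Of all genes tested, those nearest to CDX2 were MAGI3 (r = 0.96), TEAD3 (0.95) and LMO1 (0.95). GATA3 was nearest to HPCAL1 (0.95), ATP6V0A4 (0.94) and EZR (0.94), and TFAP2C to OSBPL8 (0.86), DDX51 (0.82) and LOC112449258 (0.82). ASCL2 was nearest to SRARP (0.91), PROM1 (0.90) and LOC100300510 (0.88).

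Other transcription factors known from trophoblast were read from a list of 20, of which 19 were in the table and 15 were tested. In LB TE relative to LB EPI 4 rose and 1 fell, with a median log2 change of 0.90, beside 8.26% higher and 6.9% lower of all genes tested. In MB TE relative to MB ICM 3 rose and 1 fell, with a median of 0.70, beside 5.97% higher and 4.11% lower of all genes. GRHL1, a grainyhead factor of epithelia, was at 177 and 144 CPM in LB TE of replicates 3 and 5, against 9.50, 13.8 and 10.6 CPM in LB EPI of replicates 2, 3 and 5. It rose by 2.96 (SE 0.32, adjusted p = 3.04e-06, limma) on day 9 and by 2.17 (SE 0.29) on day 8. TBX3, a T-box repressor, rose in LB TE by 2.06 (SE 0.38) but also in LB PE, by 2.59 (SE 0.38, adjusted p = 0.000258) relative to LB EPI. DLX3, which neighbours DLX4 in the genome, rose by 1.52 in LB TE (SE 0.30), and ELF3, an epithelial ETS factor like ELF5, by 1.93 (SE 0.39) on day 9 and 2.13 (SE 0.35) on day 8. GRHL2 rose by 1.61 on day 8 (SE 0.31). GCM1, which in the mouse directs the labyrinth, fell by 1.72 on day 9 (SE 0.39) and fell by 1.68 on day 8 (SE 0.35).

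The Hippo pathway and the TEAD factors, which in the mouse act upstream of Cdx2 and Gata3, were read from 17 genes. Of all genes tested, 15.2% were called either way on day 9 and 10.1% on day 8. Among the 17, 3 rose and 1 fell in LB TE and 2 rose and 0 fell in MB TE, with medians of -0.05 and -0.11. TEAD3 was the DNA-binding member among them, up by 1.93 (SE 0.33) on day 9 and 1.53 (SE 0.29) on day 8, and AMOT the junctional one, up by 2.10 (SE 0.37) and 2.28 (SE 0.33). AMOTL1 fell by 1.67 on day 9 (SE 0.37, adjusted p = 0.00312, limma), and NF2 was the third gene to rise there, by 1.48 (SE 0.46, adjusted p = 0.0307). TEAD2 had a log2 change of -1.10 on day 8 (SE 0.38, adjusted p = 0.071). TEAD4, the factor that drives Cdx2 in the mouse, had 61.3 and 53.2 CPM in LB TE, against 19.0, 27.3 and 36.4 CPM in LB EPI, and did not pass. Against the same shares of all genes, 20 genes of the working trophectoderm were measured and 19 tested, of which 15 rose and 0 fell on day 9 and 14 rose and 1 fell on day 8, with medians of 3.30 and 2.77. The keratin gene KRT8 rose by 4.55 and 4.24, the endocytic adaptor gene DAB2 by 4.15 and 3.72, and PLAC8 by 3.93 and 2.96, on day 9 and day 8. KRT7 was the gene that fell, by 2.79 on day 8. Of 11 epiblast factors 7 fell and 0 rose in LB TE, and 6 fell and 1 rose in MB TE, with medians of -1.34 and -1.01. NANOG fell by 4.13 on day 9 and fell by 2.61 on day 8. SOX2 fell by 3.74 and fell by 2.80, POU5F1 fell by 2.75 on day 9, and DPPA4 fell by 1.39 on day 8. TFCP2L1 was the factor that rose on day 8, by 0.93. Of 7 hypoblast factors 4 were tested, beside the same shares of all genes. On day 9 1 rose and 1 fell, and on day 8 0 rose and 2 fell, with medians of -0.05 and -0.77. HNF4A fell by 2.91 on day 9 and fell by 2.90 on day 8, and GATA6 rose by 1.37 on day 9. GATA4 had log2 changes of -0.12 and -0.10, which did not pass.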

How the data were processed

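Single-cell RNA libraries of bovine embryos were processed by the authors with Trim Galore, HISAT2, featureCounts and Seurat on ARS-UCD1.2, per the submitters' processing notes. The sources used here give no versions, order, settings or filters. The deposited table holds the natural log of 1 plus the value per 10000 reads for 18825 genes in 286 of 288 listed cells. In each cell the smallest step gave whole reads for 100% of values within 0.1 reads. All 48 cell barcodes occur in more than 1 library. The 2 injected libraries of the 8 samples were not analysed here.

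CPM was averaged per library and class with at least 3 cells. The 12538 genes with at least 10 CPM in 1 or more averages were fitted on log2(CPM + 10) with limma 3.58.1 in R 4.3.3 (trend, robust), with the library as a random block (consensus correlation 0.18), since classes of 1 number come from 1 library, and Benjamini-Hochberg adjustment at 0.05. The scripts were tested on simulated data. Named genes were the 10 members, the 3 genes nearest by Pearson's r to CDX2, GATA3, TFAP2C and ASCL2, and from each list the 3 with the smallest adjusted p on each day. TEAD4, GCM1, NF2, KRT7 and TFCP2L1 were named outside this rule, after their values were seen. For 1 list gene the result is not reported here. The members and lists were chosen with earlier results of these data known. Alternatives were pseudocounts of 1 and 30, no filter, at least 5 cells, no block, a mean of log2 values, other scaling, each library left out and, chosen after seeing the data, limma-voom on summed reads.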

Additional observations from a re-analysis of the deposited data

Results flagged for a closer look

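The trophectoderm change of TFAP2C differed in direction between the days within libraries: -0.53 and -0.66 on the log2 scale in replicates 3 and 5 on day 9, and 1.02 and 1.11 in replicates 1 and 2 on day 8. The tested difference of -1.74 missed the threshold (adjusted p = 0.0529, limma).

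Some cells stood in groups too small to be averaged. CDX2 was at 178 CPM as a mean of 2 EB cells of replicate 1, above the highest average used, 72.9 CPM in MB TE. That mean rests on 5 and 7 reads in shallow cells of 29295 and 37742 reads. MSX2 had a mean of 717 CPM in the same 2 EB cells, where the highest average used was 17.9 CPM, and 1 of the cells held all of its reads. GATA3 was at 829 CPM in 1 MB ICM cell of replicate 3, where the highest average used was 642 CPM. None of these cells entered a comparison.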

How the results depend on the processing

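The 17 called changes kept their sign in all 236 values recomputed under 14 settings, and 224 of those kept the call. ELF5 was not tested without replicate 3, so its called changes have no value there. With each library left out, the number of genes called ranged from 4 to 6 for LB TE minus LB EPI, 2 to 4 for LB PE minus LB TE, 0 to 1 for LB PE minus LB EPI and 0 to 1 for LB TE minus MB TE. For LB PE minus LB EPI it was 0 without the replicate block, without the filter and with limma-voom. For LB TE minus MB TE it was 1 with at least 5 cells, 1 with limma-voom and 2 with the mean of log2 values. It was 1 for MB ICM minus EB with limma-voom, and 1 for the difference between the day 9 and day 8 changes with a pseudocount of 30 and with the mean of log2 values, in both cases TFAP2C. For MB TE minus MB ICM it was 5 and became 7 with the mean of log2 values, which added MSX2 and TFAP2A. The replicate block changed no other call. Shares of all genes called under each alternative setting are not given here. Counts of called genes under those settings, here and above, therefore have no background to be read against. Signs turned in uncalled changes. For LB TE minus MB TE, GATA3 ranged from -0.41 to 0.13 and MSX2 from -0.38 to 0.058 over the left-out libraries, and MSX2 was 0.015 with at least 5 cells. For LB PE minus LB TE, MSX2 ranged from -0.70 to 0.051 over the left-out libraries. For the difference between the days, CDX2 was 0.53 with a pseudocount of 1 and 0.63 with limma-voom, and MSX2 was 0.011 with at least 5 cells, 0.96 with limma-voom and from -0.55 to 0.098 over the left-out libraries. The cause was not tested. TFAP2A in LB TE lost its call with a pseudocount of 1 (adjusted p = 0.0759, limma). EB comparisons could not be run without replicate 4. Thinning moved 44 of 70 shares of cells out of their intervals.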
